A study of Mus musculus with 16 samples.

Results

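The 10 factors described here were followed in macrophages in which Notch cleavage was blocked, and not all of them work at the replication fork. Their roles lie in histone deposition, DNA methylation, histone methylation, chromatin architecture and the nuclear lamina. They were the histone chaperones Chaf1a, Chaf1b and Asf1b, the DNA methylation factors Uhrf1, Dnmt1 and Hells, the histone methyltransferases Ezh2 and Suv39h1, and the chromatin and lamina proteins Hmgb2 and Lmnb1. The members were picked by gene symbol, and all 10 were found among the 47069 genes of the count table. When DNA is copied, nucleosomes are taken apart ahead of the fork and rebuilt on both daughter strands, and newly made strands lack the methyl groups of the parental ones. Chaperones bring histones H3 and H4 to the fork, UHRF1 recognises DNA methylated on the parental strand alone, and DNMT1 fills in the missing methyl groups. Many genes of this machinery are known targets of E2F factors and are transcribed most in cells that enter S phase, whereas resting macrophages replicate little DNA.

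The cells were macrophages derived from bone marrow (BMMs) of C57BL/6 mice aged 8 to 10 weeks, grown from marrow with medium conditioned by L929 cells, a source of M-CSF. All of them were primed overnight with IFNγ (10 ng/mL) and activated for 1 hr with Salmonella LPS (100 ng/mL) together with immune complexes (ICs) of ovalbumin and rabbit anti-ovalbumin IgG. The first group received the gamma-secretase inhibitor (GSI) DAPT at 25 μM and the other its vehicle, DMSO (0.01%), and mRNA was sequenced from 2 libraries per group. By the paper's methods, the cells were kept overnight with DAPT or DMSO and then activated. Some of its figure captions mention a shorter pretreatment. In either case DAPT was present before the 1 hr of activation began, so the changes need not have arisen within that hour. DAPT blocks the cleavage that releases the Notch intracellular domain, and gamma-secretase has other substrates as well. The libraries analysed here held no cells without LPS/ICs and no genetic block of Notch, so the comparison concerns the inhibitor in activated cells. They had 42694655 to 56932059 counts in genes. Whether the replicates came from separate animals or cultures was not given, so the p-values measure the spread between these libraries, which may be technical.

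Of the 10 factors, 8 were lower with GSI at a false discovery rate (FDR) under 0.05 in the quasi-likelihood test of edgeR, adjusted by Benjamini-Hochberg over 13211 genes. The same test called 40.8% of all tested genes changed in either direction and 21.9% lower. The falls ranged from 19.2% for Hmgb2 (a log2 fold change of -0.31) to 55.0% for Lmnb1 (-1.15). Chaf1b and Suv39h1 did not pass the test. In all 10 genes both GSI libraries lay below both DMSO libraries, a pattern seen in 34.8% of all tested genes. The median log2 fold change of the 10 factors was -0.56, against 0.01 over all tested genes. Uhrf1 and Lmnb1 were at least 2-fold lower, and 3.72% and 3.47% of all tested genes had a log2 fold change below theirs. Of the members, 0 passed the further limit that the study set on size, an absolute log2 fold change above 1.5. The share of all tested genes past that limit is not given here. That count was also 0 in DESeq2 and at an unadjusted p under 0.05 in edgeR. No p threshold could have changed it, since the largest log2 fold change was -1.15 in edgeR and -1.16 in DESeq2. With bulk RNA, fewer cells in the cell cycle and less of these mRNAs per cell cannot be told apart.

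**Figure D1:**
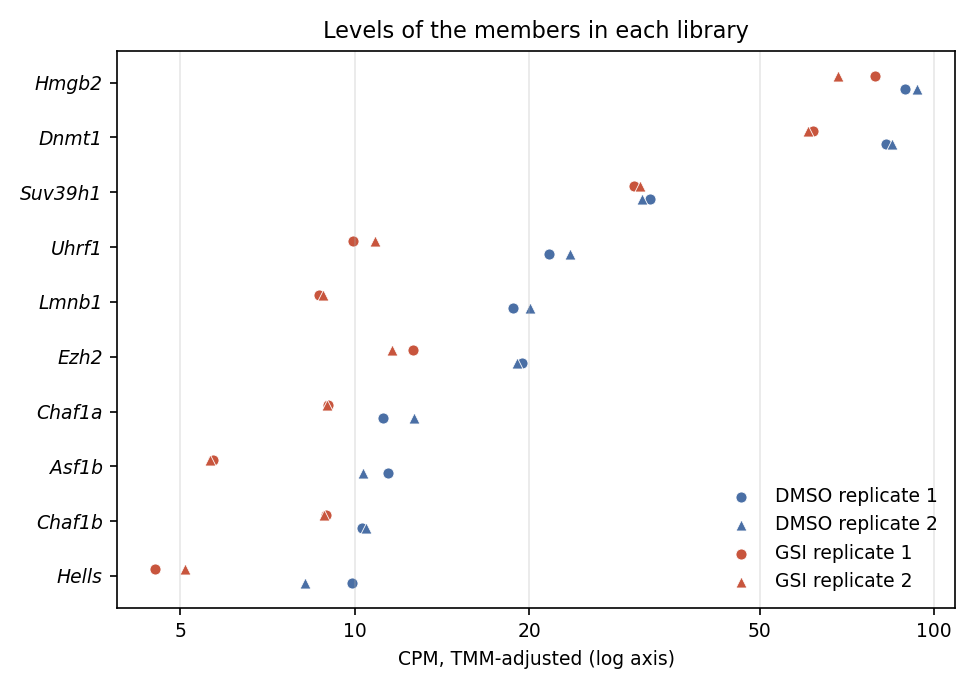
Levels of the 10 factors in each library, as counts per 1000000 (CPM) after TMM adjustment on a log axis, with DMSO in blue, GSI in red and replicates 1 and 2 as circles and triangles. Both red points lie to the left of both blue points in every row, widely for Lmnb1 and Uhrf1 and by little for Suv39h1.

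The chaperones that rebuild nucleosomes at the fork had unequal fold changes. Asf1b (chr8:83955507-83970197, plus strand), which hands H3-H4 dimers to other chaperones, was at 11.4 and 10.3 CPM in the DMSO libraries and at 5.69 and 5.63 CPM in the GSI libraries. The GSI replicates were nearly equal, and the groups were far apart. The log2 fold change of Asf1b was -0.94 ± 0.11 (SE, n = 2 libraries per group), with an adjusted p of 7.83e-07 by edgeR's quasi-likelihood test. Chaf1a (chr17:56040439-56072289, plus strand) encodes the large subunit of CAF-1, the complex that deposits H3-H4 on new DNA and binds PCNA at the fork. It had 11.2 and 12.7 CPM with DMSO and 8.98 and 8.97 CPM with GSI. Its DMSO replicates were the more spread, yet the groups did not overlap, and Chaf1a fell by 24.9% (log2 fold change -0.41 ± 0.10 (SE), adjusted p = 0.00284 by edgeR's quasi-likelihood test). Without DMSO replicate 2 the log2 fold change was -0.32 and the adjusted p was 0.0591 in the same edgeR test, in which the lone DMSO library was assumed to vary like the GSI libraries. Without DMSO replicate 1 the call held (-0.50). Chaf1b (chr16:93883901-93906115, plus strand), another subunit of CAF-1, was at 10.3 and 10.5 CPM with DMSO and at 8.94 and 8.85 CPM with GSI. The values were tightly grouped and separate, but the log2 fold change of -0.22 ± 0.10 (SE) did not pass the test (adjusted p = 0.0795 by edgeR's quasi-likelihood test). Per kilobase of exon, Chaf1a was measured at 0.574 and 0.639 times the level of Chaf1b with DMSO and at 0.531 and 0.536 times with GSI.

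The count of Chaf1a has a limit that the other members lack at this size. On the opposite strand lies Ubxn6, a protein-coding gene that shares 4648 exonic bases with it, 52.5% of the Chaf1a exons. Ubxn6 had 1855 and 2559 counts with DMSO and 2750 and 2911 with GSI, against 481, 718, 434 and 443 for Chaf1a in the same order. Ubxn6 thus rose (log2 fold change 0.39, adjusted p = 0.000215 by edgeR's quasi-likelihood test) while Chaf1a fell. The libraries were stranded, but the strand setting of the counting was not given, and the part of Ubxn6 reads in the Chaf1a counts was not tested. The same limit holds for the levels of Chaf1a per kilobase of exon, since the shared bases count in its length. Suv39h1 shares 767 exonic bases with the antisense gene Gm14820 (10 and 7 counts with DMSO, 1 and 1 with GSI). Ezh2 shares 174 with Gm26625 (2 and 1 counts with DMSO, 0 and 0 with GSI).

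The 3 factors that maintain DNA methylation all fell, in unequal measure. Uhrf1 (chr17:56303321-56323486, plus strand), the reader of hemimethylated DNA that brings DNMT1 to the fork, had 21.7 and 23.5 CPM with DMSO and 9.95 and 10.9 CPM with GSI. Each GSI library was below every DMSO library by a wide margin. The log2 fold change of Uhrf1 was -1.12 ± 0.09 (SE), a fall of 54.0% (adjusted p = 7.32e-09 by edgeR's quasi-likelihood test). Dnmt1 (chr9:20907209-20959888, minus strand), the maintenance methyltransferase itself, was at 82.6 and 84.8 CPM with DMSO and at 61.9 and 60.6 CPM with GSI. Its replicates differed little, and Dnmt1 fell by 26.9% (log2 fold change -0.45 ± 0.07 (SE), adjusted p = 3.10e-05 by edgeR's quasi-likelihood test). Hells (chr19:38930915-38971051, plus strand), a remodeler of the SNF2 family needed for DNA methylation of repeats, had 425 and 465 counts with DMSO and 219 and 252 with GSI. These were 9.88 and 8.20 CPM against 4.53 and 5.10 CPM, with separate groups. Hells fell by 46.4% (log2 fold change -0.90 ± 0.12 (SE), adjusted p = 7.03e-06 by edgeR's quasi-likelihood test), and its error was the widest among the members.

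Of the histone methyltransferases, Ezh2 fell and Suv39h1 did not pass the test. Ezh2 (chr6:47530139-47595341, minus strand), the catalytic subunit of Polycomb repressive complex 2 (PRC2) that methylates lysine 27 of histone H3, had 19.5 and 19.0 CPM with DMSO and 12.6 and 11.6 CPM with GSI. The gap between the groups was wider than the gap between replicates, and the log2 fold change was -0.67 ± 0.09 (SE), with an adjusted p of 5.46e-06 by edgeR's quasi-likelihood test. Suv39h1 (chrX:8061171-8074760, minus strand) trimethylates lysine 9 of histone H3 in pericentric heterochromatin. It was at 32.4 and 31.3 CPM with DMSO and at 30.3 and 31.1 CPM with GSI, so that the highest GSI library lay just under the lowest DMSO library. Its log2 fold change was -0.05 ± 0.08 (SE), with an adjusted p of 0.634 by edgeR's quasi-likelihood test.

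Hmgb2 and Lmnb1 had the smallest and the largest fall among the 8 called members. Hmgb2 (chr8:57511907-57515999, plus strand), a protein that bends DNA and is abundant in dividing cells, was at 88.9 and 93.3 CPM with DMSO and at 79.0 and 68.2 CPM with GSI. Its GSI replicates were spread more than its DMSO replicates, without overlap of the groups. The log2 fold change of Hmgb2 was -0.31 ± 0.08 (SE), with an adjusted p of 0.00336 by edgeR's quasi-likelihood test. Without GSI replicate 2 it was -0.20, with an adjusted p of 0.0553 in the same edgeR test, in which the lone GSI library was assumed to vary like the DMSO libraries. Lmnb1 (chr18:56707813-56753424, plus strand) encodes lamin B1, a filament of the nuclear lamina that is lost in senescent cells. It had 808 and 1140 counts with DMSO and 420 and 435 with GSI, or 18.8 and 20.1 CPM against 8.69 and 8.81 CPM. These groups stood far apart, and Lmnb1 fell by 55.0% (log2 fold change -1.15 ± 0.09 (SE), adjusted p = 5.91e-09 by edgeR's quasi-likelihood test).

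Levels were compared between genes as RPKM, which are counts scaled to both library size and kilobases of exon. Hmgb2 was the most abundant member, with a mean of 30.4 RPKM in DMSO and 24.5 RPKM in GSI. Dnmt1 followed with 11.3 and 8.30 RPKM, and Hells was the lowest with 1.25 and 0.669 RPKM. Lmnb1 stood above Suv39h1 with DMSO (6.56 against 6.04 RPKM) and below it with GSI (2.95 against 5.83 RPKM). Ezh2 stood above Chaf1b with DMSO (2.88 against 2.22 RPKM) and hardly differed from it with GSI (1.81 against 1.90 RPKM). The higher GSI library of Ezh2 (1.8865 RPKM) lay just below the lower one of Chaf1b (1.8905 RPKM). Among neighbours in this order, libraries overlapped between Chaf1a and Hells alone with DMSO, and between Uhrf1 and Asf1b alone with GSI.

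Each member was then set against a counterpart, a paralogue or a factor with a related task outside replication, within the same library. A ratio of this kind does not depend on the scaling of libraries. Asf1a, the paralogue of Asf1b, had 8.99 and 7.65 CPM with DMSO and 9.35 and 8.99 CPM with GSI. Per kilobase, Asf1b was 1.98 and 2.10 times Asf1a with DMSO and 0.947 and 0.974 times with GSI, so the order of the pair turned. Dnmt1 was 2.91 and 3.10 times Dnmt3a, a de novo methyltransferase, with DMSO and 1.71 and 1.87 times with GSI. Dnmt3a itself rose (log2 fold change 0.30, adjusted p = 0.00318 by edgeR's quasi-likelihood test). Lmnb1 was 2.31 and 2.40 times Lmnb2 with DMSO and 1.39 and 1.41 times with GSI. Lmnb2 also fell (-0.41, adjusted p = 0.00229 in the same edgeR test). Ezh2, which was below its paralogue Ezh1 per kilobase in every library, went from 0.407 and 0.371 times Ezh1 to 0.266 and 0.244 times.

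For the other pairs the difference in log2 ratio, GSI minus DMSO, was -0.95 for Uhrf1 to Uhrf2, -0.64 for Hells to Smarca5, and -0.64 for Chaf1a and -0.46 for Chaf1b to Hira, the chaperone of histone H3.3. It was -0.25 for Hmgb2 to Hmgb1. In these and the pairs above, 9 in all, both GSI libraries had a lower ratio than both DMSO libraries. Set against the same 8 counterparts, 10.9% (Lmnb2) to 62.7% (Dnmt3a) of all other tested genes had this pattern. The pair of Suv39h1 and Suv39h2 had the opposite sign (0.65), but Suv39h2 had only 37 and 33 counts with DMSO and 25 and 18 with GSI. The difference of this pair was 0.39 without DMSO replicate 1 and 0.38 without GSI replicate 2, and 67.3% of all other tested genes were likewise higher relative to Suv39h2 without overlap. With 2 libraries against 2, the exact two-sided permutation test of a ratio cannot go below p = 0.33, which each pair reached. Of the 9 counterpart genes, Smarca5 and Lmnb2 fell, Dnmt3a rose and 6 did not pass edgeR's quasi-likelihood test.

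**Figure D2:**
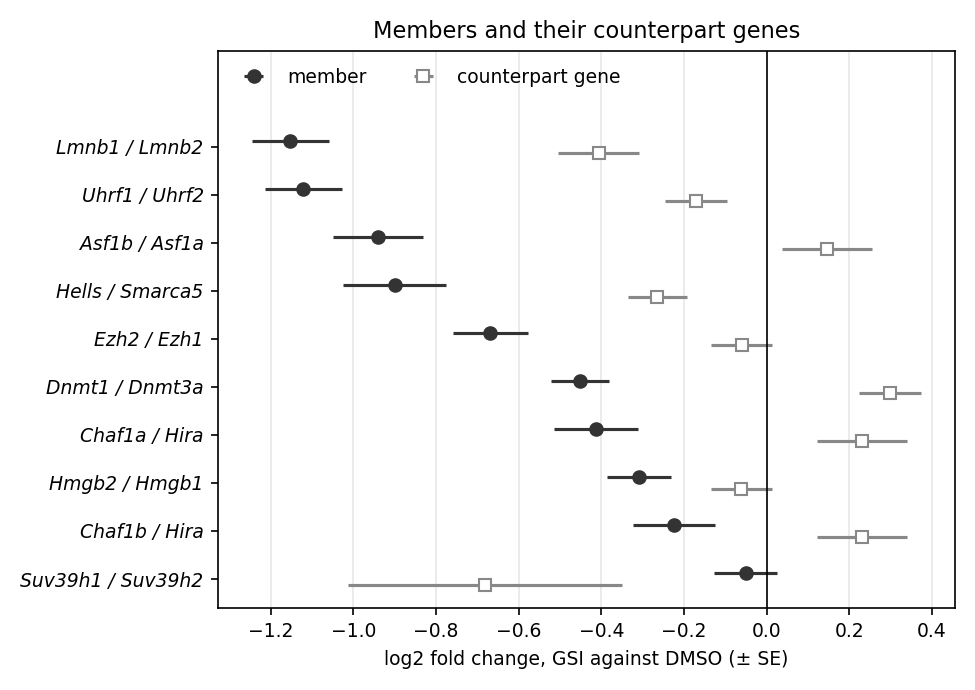
Log2 fold change of each factor (filled circles) and of its counterpart (open squares), GSI against DMSO, with standard errors from edgeR's fit as bars. The factors lie left of their counterparts in every row but that of Suv39h1 and Suv39h2, where the counterpart has the widest bar.

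The members were also set against 2 genes of dividing cells, Mki67, which coats mitotic chromosomes, and Top2a, the topoisomerase that untangles them. Mki67 had 10048 and 12870 counts with DMSO and 7695 and 7062 with GSI (log2 fold change -0.61, adjusted p = 1.22e-06 by edgeR's quasi-likelihood test). Top2a had 4114 and 5178 counts with DMSO and 1854 and 1917 with GSI (-1.28, adjusted p = 4.73e-11 in the same edgeR test). Relative to Mki67, 5 members were lower with GSI without overlap of the groups, as were 6.31% of all other tested genes. The differences in log2 ratio were -0.54 for Lmnb1, -0.51 for Uhrf1, -0.33 for Asf1b, -0.29 for Hells and -0.06 for Ezh2. The value for Hells was -0.18 without DMSO replicate 1, -0.13 without GSI replicate 1 and -0.46 without GSI replicate 2. The other 5 were higher, as were 82.2% of all other tested genes, namely Dnmt1 (0.16), Chaf1a (0.20), Hmgb2 (0.30), Chaf1b (0.39) and Suv39h1 (0.56). Chaf1a was at 0.09 without DMSO replicate 1, 0.31 without DMSO replicate 2 and 0.13 without GSI replicate 2, and Dnmt1 at 0.10 without GSI replicate 2. Relative to Top2a all 10 were higher with GSI, as were 95% of all other tested genes, by 0.12 for Lmnb1 to 1.22 for Suv39h1 on the log2 scale. The value for Lmnb1 was 0.04 without DMSO replicate 1 and 0.21 without DMSO replicate 2. That of Uhrf1 (0.16) was 0.06 and 0.25 without these libraries and 0.10 without GSI replicate 2. The split seen with Mki67 therefore depended on the gene used as reference, and the exact permutation test of either ratio cannot go below p = 0.33 with 2 libraries per group.

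**Figure D3:**
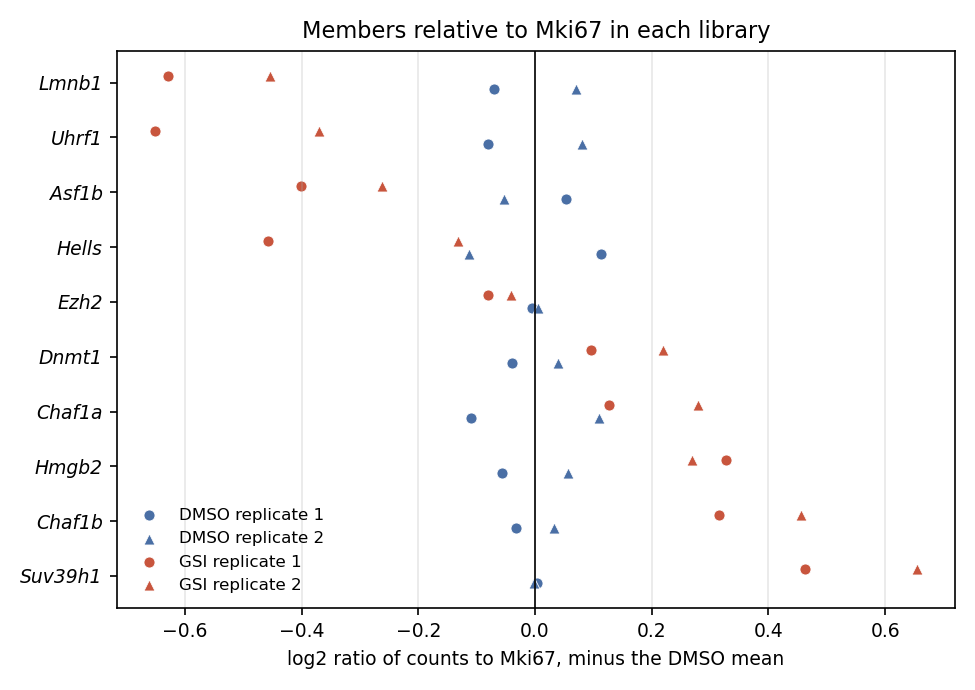
Log2 ratio of the counts of each factor to those of Mki67 in each library, shown relative to the DMSO mean, with DMSO in blue and GSI in red and the replicates as circles and triangles. The red points lie left of the blue ones in the upper 5 rows, from Lmnb1 to Ezh2, and right of them in the lower 5.

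The surrounding pathways were described with 12 lists of related genes, in which 134 tested genes were not members. Of these 134 genes, 62 were lower (46.3%) and 15 higher by edgeR's quasi-likelihood test, and their median log2 fold change was -0.19. Over all tested genes 21.9% were lower and 40.8% changed in either direction. Each list below is to be read against these shares. Replication-coupled histone deposition, with 16 tested genes, had 5 lower and 1 higher. Among the 13 that were not members 3 were lower and 1 higher, with the lower share near that over all tested genes. Mcm2, a helicase subunit that binds histones, fell (log2 fold change -0.72), as did Dnajc9, a histone co-chaperone (-0.56). Among genes chosen after their values were seen, Pcna, the sliding clamp to which CAF-1 binds, had a log2 fold change of -0.01 (adjusted p = 0.938 by edgeR's quasi-likelihood test). Rbbp4, a subunit shared by CAF-1 and PRC2 and likewise chosen after its value was seen, had 0.04 (adjusted p = 0.66 in the same edgeR test).

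Replication-independent deposition had 4 lower and 1 higher of 10 tested genes, with Atrx (-0.63) and Chd1 (-0.46) the furthest. Of 17 tested DNA methylation genes 5 were lower and 3 higher. Without the members 2 were lower and 3 higher of 14, a smaller lower share than over all tested genes. Tet2, which oxidises methylcytosine, fell (-0.41), and Mbd3, of the NuRD complex, rose (0.38). PRC2 and its partners had 5 lower of 11. Phf19, an accessory subunit that reads methylated lysine 36 of histone H3, had 347 and 463 counts with DMSO and 159 and 180 with GSI. It fell (log2 fold change -1.23, adjusted p = 1.16e-07 by edgeR's quasi-likelihood test), as did Jarid2, another accessory subunit (-0.49).

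Among 14 tested genes of histone H3 lysine 9 methylation and HP1, 5 were lower and 2 higher, with the HP1 protein Cbx3 at -0.57 and the methyltransferase Setdb2 at 0.38. The 3 genes of histone H4 lysine 20 methylation split into Setd8, which rose (0.27), Suv420h2, which fell (-0.25), and 1 that did not pass. In the list of high mobility group proteins 5 of 8 were lower and 2 higher. Hmga1, an AT-hook protein without the HMG box, had 9565 and 14805 counts with DMSO and 22024 and 18209 with GSI and rose (log2 fold change 0.77, adjusted p = 1.20e-06 by edgeR's quasi-likelihood test). Hmgb3, which fell (-0.59), had only 58 and 79 counts with DMSO and 45 and 44 with GSI. The lamina and inner nuclear membrane had 6 lower and 2 higher of 13, with Lbr, the lamin B receptor, at -0.69 and Lmna, which encodes lamins A and C, at -0.48, both past the test.

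Of 12 tested SNF2-family and other remodelers 8 were lower, with Baz1a, an accessory subunit of ISWI complexes, at -0.85 (5178 and 6617 counts with DMSO, 3314 and 3096 with GSI). Polyadenylated histone variants had 2 lower, H2afv (-0.53) and H3f3a (-0.35), and 1 higher of 8, with the lower share near that over all tested genes. Replication origin and fork genes had 20 lower and 1 higher of 30, with a median of -0.39, led by Mcm7 (-1.0) and Dtl (-1.0). Cycling-cell markers had 7 lower of 8, with a median of -0.97, led by Ccna2 (-1.37) and Top2a. The exception, Tpx2, a spindle protein named here after its value was seen, rose (0.41). The log2 fold changes of Uhrf1 and Lmnb1 were beyond the median of the cycling-cell list, while those of Chaf1b, Hmgb2 and Suv39h1 were nearer to 0 than the median of the fork genes.

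**Figure D4:**
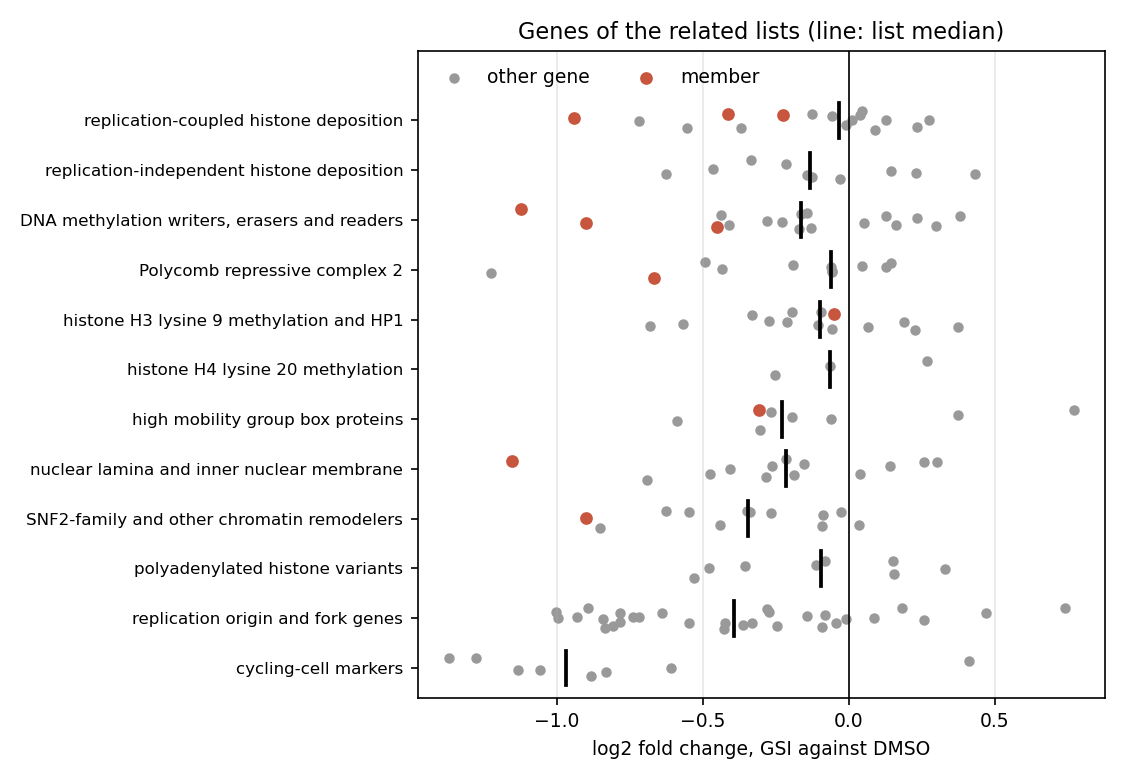
Log2 fold change, GSI against DMSO, of every tested gene in the 12 related lists, with members in red, other genes in grey and the median of each list as a black line. The cycling-cell markers and the fork genes have the lowest medians, and Asf1b, Uhrf1 and Lmnb1 are the leftmost points of their lists.

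To show what the reference holds at the starts of these genes, the 250 bases before each RefSeq start (GRCm38.p6) were searched on both strands. The table held 13 such windows for 9 of the 10 members, and Lmnb1 was not matched. Some windows overlap annotated exons (GENCODE), by 187 bases for Asf1b, 166 for the third of Dnmt1 and 125 for Ezh2. The overlap is 75 bases for Hells, 68 for the second of Suv39h1 and 16 for the first of Uhrf1, and the other windows have 0. The letters searched were TTTCCCGC, TTTCGCGC, TTTGCCGC and TTTGGCGC for E2F factors, CCAAT for the CCAAT box, TTTGAA for the cell cycle homology region (CHR), and TGGGAA for RBPJ, the DNA-binding partner of Notch. An E2F match was present in 4 of the 13 windows, 1 each of Uhrf1, Dnmt1, Hells and Suv39h1, and in 1.86% of all 32841 windows. CCAAT was found in 9 of 13 windows against 33.9% of all, TTTGAA in 3 against 16%, and TGGGAA in 3 (Chaf1a, Chaf1b and Dnmt1) against 21.6%. No binding was measured, and a match is a description of letters. The windows of Uhrf1 and Dnmt1, which fell, and of Chaf1b and Suv39h1, which did not pass the test, are shown in the direction of the gene, with E2F and CCAAT letters of either strand in capitals. The windows are chr17:56304063-56304312 (plus strand, the second start of Uhrf1), chr9:20959889-20960138 (minus strand, the first of Dnmt1), chr16:93883651-93883900 (plus strand) and chrX:8074761-8075010 (minus strand, the first of Suv39h1).
Uhrf1: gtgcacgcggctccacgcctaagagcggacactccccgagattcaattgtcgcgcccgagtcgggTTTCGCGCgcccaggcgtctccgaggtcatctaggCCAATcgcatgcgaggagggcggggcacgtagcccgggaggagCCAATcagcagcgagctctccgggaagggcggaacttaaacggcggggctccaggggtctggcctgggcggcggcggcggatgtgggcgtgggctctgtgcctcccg
Dnmt1: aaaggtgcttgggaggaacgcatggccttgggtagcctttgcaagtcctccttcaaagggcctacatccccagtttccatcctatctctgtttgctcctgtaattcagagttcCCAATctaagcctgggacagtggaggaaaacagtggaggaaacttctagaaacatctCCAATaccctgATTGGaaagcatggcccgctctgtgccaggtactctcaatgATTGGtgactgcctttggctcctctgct
Chaf1b: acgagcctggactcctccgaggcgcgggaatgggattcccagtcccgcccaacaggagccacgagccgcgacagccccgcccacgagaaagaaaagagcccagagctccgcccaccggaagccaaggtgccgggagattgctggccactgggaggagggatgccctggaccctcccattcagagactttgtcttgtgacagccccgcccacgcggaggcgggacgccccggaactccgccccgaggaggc
Suv39h1: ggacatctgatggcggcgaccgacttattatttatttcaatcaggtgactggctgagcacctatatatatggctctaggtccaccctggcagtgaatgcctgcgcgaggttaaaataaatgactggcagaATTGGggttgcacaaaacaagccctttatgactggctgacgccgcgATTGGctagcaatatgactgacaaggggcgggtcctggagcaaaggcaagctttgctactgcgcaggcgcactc
In the Uhrf1 window the E2F letters span 185 to 178 bases before the start, ahead of a CCAAT at 150 and another at 107 bases. The Dnmt1 window has 4 CCAAT matches, the first of which overlaps a TGGGAA match on the other strand. The Chaf1b window has neither E2F nor CCAAT letters, and that of Suv39h1 has 2 CCAAT matches. The E2F matches of Dnmt1 and Suv39h1 lie in windows of other starts of these genes, and the first window of Uhrf1 has none. The E2F difference between the windows shown thus depends on which start was printed.

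The markers of the labelled cell type were present in all libraries. The 10 macrophage markers, Csf1r, Adgre1 and Cd68 among them, summed to 12725 to 12942 CPM with DMSO and to 9933 to 10839 CPM with GSI. Of these markers 7 fell while Mertk rose (edgeR's quasi-likelihood test), and 21.9% of all tested genes were lower. Dendritic cell markers summed to 179 to 186 CPM with DMSO and 113 to 115 CPM with GSI, nearly all of it Clec9a, and Siglech was at 0. Stem and progenitor markers summed to 12.1 to 13.3 CPM with DMSO and 5.17 to 5.27 CPM with GSI, where Cd34 fell (log2 fold change -2.05) and Kit rose (0.83). Markers of neutrophils, erythroid cells, B cells, T and NK cells, mast cells and stromal cells summed to at most 1.45 CPM each in any library, with Elane, Prtn3, Ebf1 and Cd3g at 0. Stromal markers summed to 1.09 to 1.16 CPM with DMSO and 0.538 to 0.81 CPM with GSI, where Cxcl12 fell (log2 fold change -0.84), and mast cell markers to 0.493 to 0.558 CPM and 0.283 to 0.372 CPM, where the 1 tested marker did not pass. The summed ranges of the neutrophil and B cell lists overlapped between the groups. Cycling-cell markers summed to 462 to 473 CPM with DMSO and 290 to 309 CPM with GSI. The part of these lists in the members' fall was not tested.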

How the data were processed

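RNA-seq counts were analysed for 2 DMSO and 2 GSI libraries of IFNγ-primed, LPS/IC-activated BMMs. The authors prepared stranded mRNA libraries, trimmed the reads with Trimmomatic, aligned them with STAR (2.5.0a per the submitters' processing notes) to mm10 (GRCm38) and deposited raw counts per gene from HTSeq. The HTSeq mode and strand setting were not given in the sources used here. Each library was the sum of 4 columns, taken as runs because they differed by about the sampling noise.

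Genes were tested with the quasi-likelihood functions of edgeR 4.0.16 under R 4.3.3 (TMM, default filterByExpr, group as the only factor), with Benjamini-Hochberg adjustment over 13211 genes and an FDR of 0.05. The standard error was the size of the log2 fold change divided by the square root of F. CPM used TMM-adjusted library sizes, and RPKM the union of exons in GENCODE, which held 46574 of the 47069 gene IDs. A count of 3 corresponded to 0.0529 to 0.0697 CPM, which covers counting error only. Scripts were tested on simulated data. Alternatives were DESeq2 1.42.0, a likelihood ratio test, a test against a 1.5-fold change, other scalings and filters, a replicate block, the 16 runs as samples, and leaving out each library.

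The members, the 21 lists and the tests were chosen with earlier results of these data known, and the lists support nothing by themselves. Named genes were the members, their counterparts, Mki67 and Top2a, and in each list the 2 largest changes past the test, and not all of these are printed. Pcna, Rbbp4, Tpx2, Ubxn6, Gm14820, Gm26625 and the other cell type markers named fall outside this rule and were chosen after their values were seen. The ratios to Mki67 and Top2a were added after the counts were seen.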

Additional observations from a re-analysis of the deposited data

How the results depend on the processing

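The count of 8 members lower with GSI was 8 with DESeq2's size factors, with no scaling, in DESeq2, in a likelihood ratio test, without a filter and with a minimum of 10 counts, and 9 with the 16 runs as samples, which added Chaf1b. It was 4 in edgeR's test against a 1.5-fold change, where Chaf1a, Dnmt1, Ezh2 and Hmgb2 no longer passed, and 7 to 8 when each library was left out, with the lone library of a group assumed to vary like the other group. Past an absolute log2 fold change of 1.5 it was 0 at any p threshold, because no member reached that size in edgeR or DESeq2. At an unadjusted p under 0.05, 9 members changed in edgeR without that limit. Of the 7 members whose exons share no base with another gene, a count added after seeing the data, 6 were lower. The 77 related genes that passed the test numbered 14 in the test against a 1.5-fold change, and 0 past the log2 limit of 1.5, also in DESeq2 and at an unadjusted p under 0.05. They numbered 68 in DESeq2, 103 with the 16 runs as samples and 61 to 71 without 1 library. No setting that was run turned the direction of a member. The share of all genes called is given for the main test alone. The counts under other settings, a replicate block among them, therefore cannot be weighed against the whole table.

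A fit with the replicate number as a replicate block called 9 members lower, adding Chaf1b (adjusted p = 0.0401 by edgeR's quasi-likelihood test, from 0.00639 to 1 over its alternatives), and 86 related genes. The labels do not tie the numbers to shared animals or days. Over 13211 genes the deviations of same-numbered libraries correlated with r = 0.184, and with 2 pairs the numbers were not taken as pairs.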
